A study of Mus musculus with 54 samples.

Results

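Gene expression in 15-day embryoid bodies (EBs) made from Mageb16-depleted (KD) embryonic stem cells was compared with that in 15-day EBs of wild-type (WT) cells. The members are the 3 arrays of KD EBs and the 3 arrays of WT EBs of that day, 6 of the 54 arrays of the study, chosen by line and day in the sample titles. All 3 lines of the study are male CGR8 murine embryonic stem cells of strain 129, differentiated at random in hanging drops and sampled on days 0, 2, 4, 12, 15 and 22. KD cells carry a stably transfected retroviral plasmid (pGFP-V-RS) with a short hairpin RNA against Mageb16, a GFP gene and puromycin resistance, and were selected as a polyclonal population. WT cells were neither transfected nor selected. A scrambled line (SCR) received the same kind of plasmid with a hairpin that targets no gene. Its 3 arrays of day 15 are given for some genes, and its counts for the gene lists near the end, since KD and WT cells differ both in Mageb16 and in the plasmid and its selection. Each line is a single population, so effects of the hairpin and of its population cannot be told apart, and whether the 3 arrays of a group stand for separate cultures is not given. The p values then rest on the spread between arrays of a group, which is pooled over all 54 arrays and may be technical.

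An EB is an aggregate in which pluripotent cells leave the stem cell state and form cells of the 3 germ layers side by side, among them beating cardiomyocytes, vessels, blood, liver-like endoderm and neurons. The stem cell state is held by a small circuit of transcription factors around Pou5f1 (Oct4), Nanog and Sox2, which is shut down as cells differentiate. Mageb16 belongs to the MAGE family, whose members share a conserved domain and often bind ubiquitin ligases, and many of which are silent outside the germ line. An array of whole EBs gives the RNA of all their cells together, so fewer cells of a type and less RNA per cell cannot be told apart.

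The arrays (Affymetrix Mouse Genome 430 2.0) hold 30939 probe sets as log2 values normalized by RMA. Of these, 25596 carry a single gene symbol and stand for 14104 genes, each read by its brightest probe set. Signals below are these values taken back to the linear scale. Pearson correlations over all probe sets were 0.993 to 0.997 within KD EBs and likewise 0.993 to 0.997 within WT EBs, and 0.925 to 0.949 between KD and WT arrays. Among the 9 arrays of day 15, the first principal component (65.6% of the variance) set the KD arrays apart, at 84.8 to 96.0. The SCR arrays lay at -46.8 to -42.6 on it and the WT arrays at -56.6 to -37.1. On the second (26.2%), SCR arrays lay at 49.2 to 51.9, WT arrays at -50.8 to -47.4 and KD arrays at -3.76 to 3.07. In 17 of the 18 groups of line and day, replicate 3 lay between replicates 1 and 2 for more probe sets than either of the others did between its partners. At day 15 that share was 41.7% in KD and 48.7% in WT EBs, where 33.3% would be even. If replicate 3 is not independent of the others, the errors given here are too small, and its cause was not tested. Markers of several germ layers were above the lower quartile of the arrays in both lines, as Alb, Tnnt2 and Dcx below show for endoderm, heart muscle and neurons.

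By the rule used here (limma, Benjamini-Hochberg adjusted p under 0.05 and at least a 2-fold difference), 5404 of 30939 probe sets (17.5%) differed between KD and WT EBs. Of these, 3210 were higher in KD EBs (10.4% of all tested) and 2194 were lower (7.09%). Counted as genes, 2959 of 14104 differed (21.0%), with 1725 higher (12.2%) and 1234 lower (8.75%). Without replicate 3 in any group the count was 5433 probe sets. With each array centred on its median the split was even, with 1497 genes higher and 1513 lower (2752 and 2762 probe sets). The median gene differed by 0.02 log2, or by -0.09 with that centring, and the median standard error (SE) of a difference was 0.126. At least a 16-fold difference was seen in 12 higher and 16 lower genes. The arrays of KD and WT EBs did not overlap in 2958 of the 2959 genes called, against 75.5% of all genes. In 308 of the higher genes every WT array lay under its own lower quartile (4.37 to 4.51 log2 on day 15), and in 189 of the lower genes every KD array did, so the size of those differences is not exact. By the same rule KD and SCR EBs differed in 16.5% of genes (10.3% higher in KD, 6.18% lower), and SCR and WT EBs in 7.77% (4.40% higher in SCR, 3.37% lower). Unless another quantity is named, log2 values given below for a gene are differences, KD minus WT at day 15.

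Mageb16, the targeted gene on chromosome X, was read by 1 probe set. Its signal was 43.1, 41.9 and 31.3 in KD EBs and 669.7 ± 25.8 in SCR EBs, against 680.3, 724 and 695 in WT EBs (mean ± SD over 3 arrays wherever a signal is given with an error). Every KD array lay far below every array of the other lines, and the KD to WT difference was -4.19 log2 (SE 0.168, limma adjusted p = 5.53e-23), while SCR and WT EBs differed by -0.06. Of 8 further members of the family on the array, KD EBs had more of 5 and less of none. Maged2 had 1641, 1552 and 1687 in KD EBs, against 377, 495 and 455 in WT EBs, without overlap (1.89 log2, adjusted p = 3.01e-15). As the mean of its probe sets the difference was 0.945, under the 2-fold minimum. Ndn (necdin), at 1.42 log2, and Maged1, at 1.08 (0.97 with each array centred on its median), are expressed widely, unlike the germ-line members. Ndn, Mageh1 and Magee1 were also higher in SCR than in WT EBs, at 1.12, 1.31 and 1.81 log2.

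**Figure D1:**
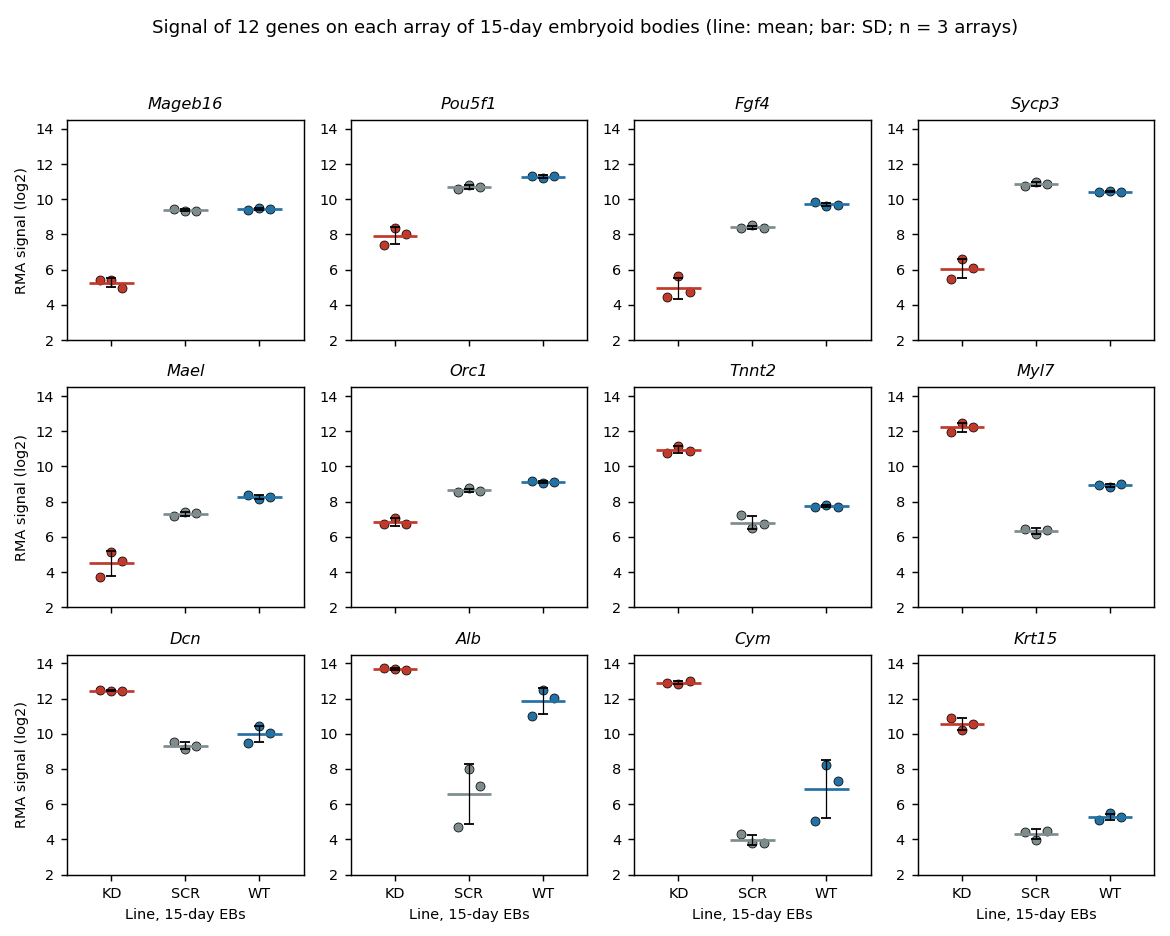
Signal of 12 genes on each array of 15-day EBs. Each panel shows the RMA signal (log2, vertical axis) of the 3 KD, 3 SCR and 3 WT arrays as points, with the mean as a line and the SD as a bar. Mageb16, Pou5f1, Fgf4, Sycp3, Mael and Orc1 lie lowest in KD EBs and the other 6 genes highest, and the WT arrays of Alb and Cym spread more widely than the KD arrays.

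The pluripotency genes were much lower in KD EBs. Of 29 measured, 26 were lower and none was higher, with a median of -2.45 log2 beside 0.02 for all genes. All 3 core factors were among them. Pou5f1 had signals of 170.1, 333 and 259.6 in KD EBs, against 2592, 2369 and 2557 in WT EBs. Nanog had 182, 367 and 272 in KD EBs, against 1992, 1808 and 1951 in WT EBs. Sox2, which neural progenitors also use, had 798, 1370.0 and 1160.1 in KD EBs, against 3083, 3019 and 2957 in WT EBs. The lines did not overlap in any of these, and replicate 1 was the lowest of the KD arrays each time. The differences were -3.35 log2 (SE 0.210, limma adjusted p = 3.35e-17) for Pou5f1, -2.86 (SE 0.210, adjusted p = 4.10e-15) for Nanog and -1.48 (SE 0.144, adjusted p = 9.43e-12) for Sox2.

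Several genes of the naive state were among the largest falls of all genes. Fgf4, a growth factor that pluripotent cells secrete, had 22.0, 49.5 and 26.4 in KD EBs, against 904, 798 and 803 in WT EBs, a difference of -4.77 log2 (SE 0.194, limma adjusted p = 9.46e-23). The KD arrays with 22.0 and 26.4 lay near their lower quartile and that with 49.5 above it, while WT EBs kept a strong signal. Nr0b1, a nuclear receptor that acts as a corepressor, had 38.1, 74.0 and 53.4 in KD EBs, against 1305, 1305 and 1278 in WT EBs (-4.61 log2). Tcl1, a cofactor of Akt kinase, stood at -4.67, Esrrb, an orphan nuclear receptor, at -4.02, and Zfp42 (Rex1), a zinc finger protein used as a marker of naive cells, at -3.37. Tdgf1 (Cripto), a coreceptor of Nodal, differed by -3.78 log2, and Dppa5a, among the brightest genes of the array, still had 4009 ± 1032 in KD EBs against 13905 ± 55.7 in WT EBs (-1.83). The 3 members not called were Klf4, a reprogramming factor (-0.52), Klf5 (0.30), and Lin28b (0.02), whose signal was near the floor in both lines. Trophectoderm and gut epithelium also express Klf5.

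Genes of the primed epiblast, the stage that follows the naive one, were lower as well, at 7 of 9 measured. Nodal, the ligand that keeps the epiblast undifferentiated, had 71.0, 108 and 75.6 in KD EBs, against 917, 749.6 and 832 in WT EBs (-3.31 log2, adjusted p = 8.15e-24), and no array of one line reached those of the other. Otx2, a homeobox factor of epiblast and forebrain, differed by -2.77, Fgf5 by -2.37 and Eomes, which opens mesendoderm formation, by -1.99. Lefty2, an antagonist of Nodal and one of its targets, was at -4.13. The largest fall of any gene was that of Patl2, an RNA-binding protein known from oocytes, with 28.2, 39.9 and 27.5 in KD EBs, against 1128, 1144 and 1144 in WT EBs (-5.18 log2, SE 0.134, adjusted p = 8.02e-29). Of the 29 pluripotency genes, 25 were lower in KD than in SCR EBs and 6 were lower in SCR than in WT EBs. Among those 6 were Fgf4 (-1.30), Tcl1 (-1.78) and Nr0b1 (-1.04).

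Germ-line genes fell with them. Of 27 measured, 22 were lower in KD EBs and none was higher, with a median of -1.58 log2. Sycp3, which builds the lateral elements of the synaptonemal complex that joins homologous chromosomes in meiosis, had 44.6, 96.3 and 69.6 in KD EBs and 1864 ± 168 in SCR EBs, against 1370.0, 1409 and 1342 in WT EBs (-4.36 log2, SE 0.245, limma adjusted p = 1.38e-18). Ddx4 (Vasa), an RNA helicase of germ cells, had 7.84, 17.8 and 13.5 in KD EBs, against 191, 153 and 175 in WT EBs (-3.81), and Mael, which helps piRNAs to silence transposons, had 13.3, 35.0 and 24.6 in KD EBs, against 338, 286 and 311 in WT EBs (-3.79). No KD array reached a WT array in these genes. Smc1b, the meiotic cohesin subunit, stood at -3.10 log2, Hormad1, a protein of unpaired chromosome axes, at -2.53, Tcfl5, a helix-loop-helix factor of the testis, at -2.90, Tex15 at -1.47 and Rec8 at -1.22. Hsf2 was at -1.05, and under the 2-fold minimum without KD replicate 2 (-0.998) or WT replicate 1 (-0.94) and as the mean of its probe sets (-0.61). Nr6a1 (-1.43) and Rad18 (-1.55) were called on their brightest probe set and were under the minimum as a mean of all their probe sets, at -0.88 and -0.875. Kit, the receptor of germ cell and blood precursors, was at 0.19 and was not called.

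Promoters of the measured genes were taken from RefSeq (build GRCm38.p6, from 250 bases before to 50 after the first listed start, 300 bases in all), and 11299 of 14104 genes matched by symbol. After the results were known, 10 motifs were searched on both strands in these windows. The E-box CACGTG was held by 7 of the 17 matched promoters of lower germ-line genes (41.2%), against 9.63% of all promoters, 13.1% of those of lower genes and none of 18 of lower pluripotency genes. The longer TCACGTGA, which contains it, was in none of the 17 and in 1.70% of all. Those of Sycp3 (chr10:88459337-88459636, plus strand) and Ddx4 (chr13:112652261-112652560, minus strand) are shown because these genes had the largest differences in the list, with the E-box in capitals.
Sycp3: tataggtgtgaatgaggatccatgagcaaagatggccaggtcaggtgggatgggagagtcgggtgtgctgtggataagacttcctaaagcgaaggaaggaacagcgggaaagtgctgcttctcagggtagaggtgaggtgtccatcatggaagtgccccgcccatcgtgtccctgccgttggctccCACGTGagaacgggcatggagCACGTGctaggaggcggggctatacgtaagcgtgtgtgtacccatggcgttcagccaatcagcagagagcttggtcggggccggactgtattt
Ddx4: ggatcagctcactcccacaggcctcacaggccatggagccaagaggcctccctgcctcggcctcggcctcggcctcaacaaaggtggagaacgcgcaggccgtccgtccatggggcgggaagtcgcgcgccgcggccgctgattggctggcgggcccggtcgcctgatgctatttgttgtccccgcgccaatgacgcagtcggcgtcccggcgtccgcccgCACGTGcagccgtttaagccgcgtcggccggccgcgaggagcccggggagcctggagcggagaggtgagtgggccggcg
Sycp3 held the motif at 2 places and Ddx4 at 1. Such a match describes the letters and is no measured binding site.

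Genes of DNA copying and division were lower by smaller amounts. Of 26 replication genes, 12 were lower and none was higher (median -0.90 log2), and of 24 mitosis genes 7 were lower and none was higher (median -0.81). Orc1, a subunit of the complex that marks replication origins, had 105, 137 and 108 in KD EBs, against 584, 545 and 560.3 in WT EBs (-2.28 log2, limma adjusted p = 3.55e-23), with no overlap. Mcm10, which helps the helicase to start, was at -2.22, Cdc6, its loader, at -1.54, and Ccne1 (cyclin E1) at -1.56. Of the replicative helicase itself, Mcm3 (-1.26), Mcm2 (-1.1) and, at the 2-fold minimum, Mcm7 (-1.01) were called. Mcm4 (-0.75), Mcm5 (-0.91) and Mcm6 (-0.55) were not. Bub1b, a kinase-like part of the spindle checkpoint, was at -1.53 and Aurka at -1.32, while Mki67, a general proliferation marker, was at 0.13 with an adjusted p of 0.101. Against SCR EBs, 5 of the 26 replication genes and 6 of the 24 mitosis genes were lower in KD EBs. No member of either list passed the rule between SCR and WT EBs.

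Genes of DNA repair and DNA methylation stood lower still, at 13 of 18 with a median of -1.43 log2. Dnmt3l, a partner of the de novo methyltransferases that is found in stem and germ cells, had 31.1, 89.9 and 72.0 in KD EBs, against 1067, 969 and 1089.9 in WT EBs (-4.15 log2, adjusted p = 5.51e-20). Tet1, which oxidises methylcytosine, was at -2.77 and Dnmt3b at -2.25. Hells, a chromatin remodeller needed for DNA methylation, had 1168, 1418 and 1269 in KD EBs, against 4096, 3984 and 3984 in WT EBs, a narrow spread in both lines (-1.65, SE 0.0810). The mismatch repair gene Msh6 differed by -1.68, Brca1, a factor of homologous recombination, by -1.34 and Fancd2 by -1.57. Dnmt1, the maintenance enzyme, was at -0.35 and Tet2 at 0.01, and neither was called. The 5 probe sets of Dnmt3a, the other de novo enzyme, disagreed, from -2.11 to 1.21 log2, with -0.77 on the brightest.

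The traffic through the nuclear envelope was one interest of the study. Of 23 nucleoporins, the proteins of the nuclear pore, 8 were lower in KD EBs and none was higher (median -0.75 log2). Against SCR EBs 2 of the 23 were lower in KD EBs, Nup37 (-1.08) and Nup43 (-1.30), and Nup107 (-0.83), Nup133 (-0.76) and Nup160 (-0.85) were not called. Nup43 had 311, 345 and 319.6 in KD EBs, against 879, 904 and 917 in WT EBs (-1.47 log2, limma adjusted p = 5.60e-19), and Nup107 and Nup160, which with it belong to the Y-shaped scaffold of the pore, were at -1.16 and -1.14. Nup37 had 592, 609 and 564 in KD EBs, against 1152, 1218 and 1226 in WT EBs (-1.03). Nup37 and Nup133 lay at the 2-fold minimum and were under it without replicate 3 in every group, at -0.98 and -0.99, which left 6 lower nucleoporins. Nup37 was also under it without KD replicate 3 (-0.997), and Nup133 without KD replicate 3 (-0.98) or WT replicate 1 (-0.93). As means of their probe sets, Nup160 (-0.60) and Nup133 (-0.68) were not called. Of 29 importins, exportins and parts of the Ran cycle, 4 were lower, where 8.75% of all genes were. They were Xpo4 (-1.85), Ranbp17 (-1.72), Rcc1, the exchange factor of Ran (-1.24), and Rangap1, its GTPase activator (-1.17, and -0.94 as the mean of its probe sets). Kpnb1, the main importin beta, was at -0.53 (adjusted p = 0.000361) and Xpo5, which exports microRNA precursors, at -0.64 (-1.055 and called when its probe sets were averaged). In glycolysis, 6 of 11 genes were lower, among them Pfkp, a phosphofructokinase (-2.02), Pkm, pyruvate kinase (-1.63), and Hk2, hexokinase 2 (-1.58). Slc2a3 (Glut3), a glucose transporter of stem cells and neurons, had 1758, 2385 and 1965 in KD EBs, against 6985, 6252 and 6608 in WT EBs (-1.71). Of 19 subunits of the respiratory chain, 3 passed the rule, each a heart and muscle form. Cox6a2 (2.04) and Cox8b (1.84) were higher and Cox7a1 (-1.003) was lower, and the median of the 19 was 0.00. Without KD replicate 1, WT replicate 1 or WT replicate 3, Cox7a1 was under the minimum, at -0.89, -0.96 and -0.99.

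**Figure D2:**
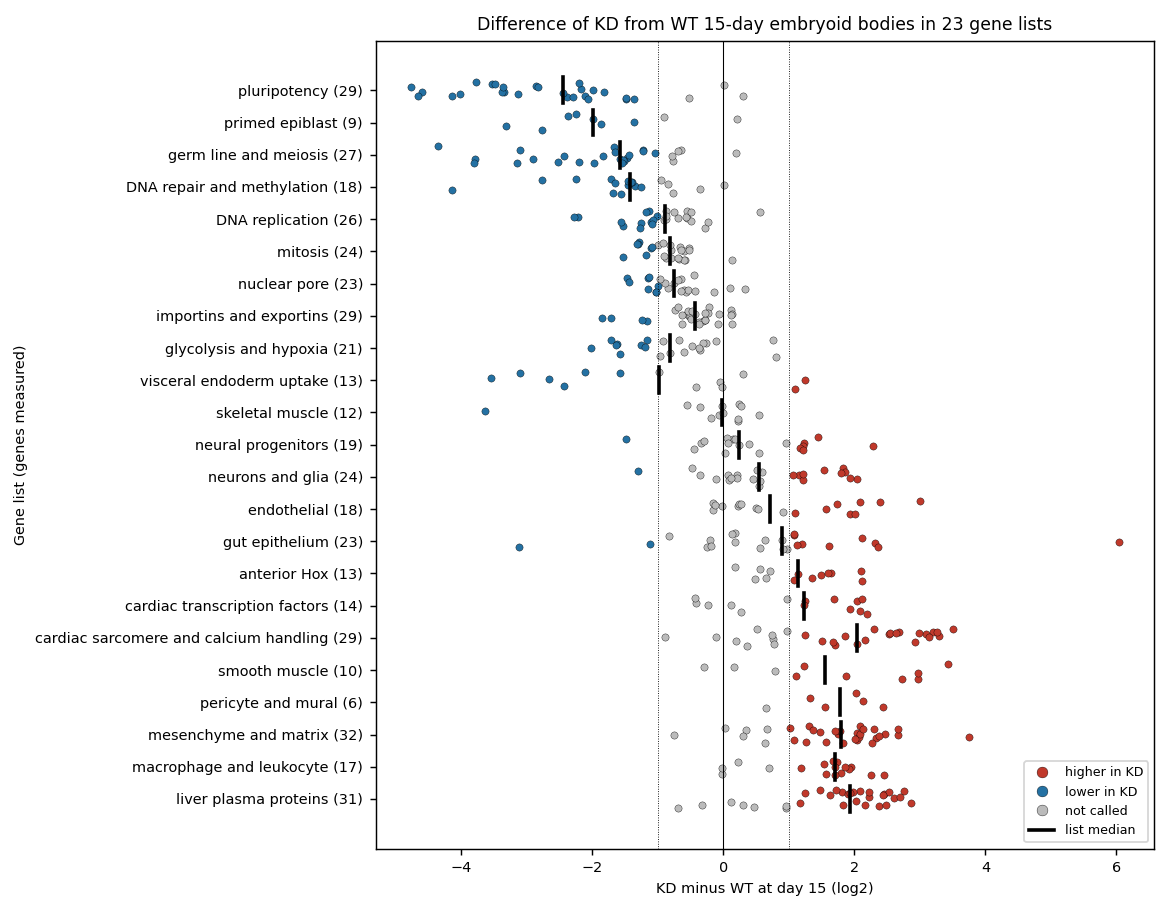
Difference of KD from WT 15-day EBs (log2, horizontal axis) for the measured genes of 23 gene lists, 1 point a gene. Red and blue points passed the rule as higher or lower in KD EBs, grey points did not, the thick mark is the list's median and the dotted lines stand at a 2-fold difference. The lists of pluripotency, germ line and DNA repair lie to the left and those of heart muscle, matrix, macrophages and liver to the right, with medians of -2.45, -1.58 and -1.43 against 2.04, 1.80, 1.70 and 1.93.

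Heart muscle genes were higher in KD EBs. Of 19 genes of the sarcomere, the contractile unit, 16 were higher and none was lower (median 2.54 log2). Of 10 genes of calcium handling and cardiac hormones, 4 were higher (median 0.87). Tnnt2, cardiac troponin T, had 1771, 2336 and 1885 in KD EBs, against 208, 226 and 211 in WT EBs (3.21 log2, SE 0.303, limma adjusted p = 4.39e-12). Myh6, the fast alpha myosin heavy chain, had 2019.8, 2798 and 2665 in KD EBs, against 298, 223 and 256 in WT EBs (3.26, adjusted p = 4.76e-15). Myl7, the light chain of the atria, had 3984, 5595 and 4871 in KD EBs, against 495, 458 and 516 in WT EBs (3.29, adjusted p = 1.40e-13). The arrays of KD EBs were several-fold above those of WT EBs in each of them.

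Myl2, the light chain of the ventricles, differed less, with 3191, 3327 and 3083 in KD EBs, against 885, 1003 and 1053 in WT EBs (1.71 log2), and Myl3 stood at 1.24. Myh7, the slow beta heavy chain, had 82.1, 122 and 105 in KD EBs, against 95.0, 64.9 and 82.1 in WT EBs, which overlap (0.35, adjusted p = 0.275). Smpx, a small protein of muscle costameres, had the largest difference of the list, at 3.51, and Actc1, cardiac alpha actin, was at 2.68. Sln (sarcolipin, 3.14) and Pln (phospholamban, 2.04), which restrain the calcium pump, were higher, while the pump gene Atp2a2 (-0.12) and the natriuretic peptide gene Nppa (0.51) were not called. Of 14 cardiac transcription factors, 8 were higher and none was lower. Mef2c, a partner of several cardiac factors, had 300.2, 307 and 309 in KD EBs, against 66.7, 63.1 and 70.5 in WT EBs (2.19), Myocd (myocardin), the coactivator of serum response factor, was at 2.12, Tbx20 at 2.09 and Hand2 at 2.04. Nkx2-5 (0.12), Gata4 (-0.42) and Mesp1 (-0.43), an early factor of heart mesoderm, were not called. Of the 29 heart muscle genes, 8 were lower in SCR than in WT EBs and none was higher, with Myl7 at -2.60 log2.

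The CArG box, the site of serum response factor, was found in 4 of 17 matched promoters of the higher heart muscle genes (23.5%), against 1.40% of all promoters and 2.47% of those of all higher genes. It was also in 1 of 4 matched promoters of higher smooth muscle genes, that of Myl9. GATAA was in 10 of the 17 (58.8%), against 16.9% of all promoters, and GGGCGG in 1 (5.88%), against 61.2%. Neither the box nor GATAA was confined to muscle genes. Of 19 matched promoters of higher liver plasma protein genes, 2 held the box (10.5%) and 7 held GATAA (36.8%). The promoters of Actc1 (chr2:114052826-114053125, minus strand) and Myl7 (chr11:5898733-5899032, minus strand) are shown because both genes were among the brightest of the list in KD EBs and hold the box, here in capitals.
Actc1: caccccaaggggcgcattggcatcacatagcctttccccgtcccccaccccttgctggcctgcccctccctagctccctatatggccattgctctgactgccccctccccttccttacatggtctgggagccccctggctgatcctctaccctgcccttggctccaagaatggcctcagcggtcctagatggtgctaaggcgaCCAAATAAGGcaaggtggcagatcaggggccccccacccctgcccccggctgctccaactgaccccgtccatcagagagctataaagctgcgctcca
Myl7: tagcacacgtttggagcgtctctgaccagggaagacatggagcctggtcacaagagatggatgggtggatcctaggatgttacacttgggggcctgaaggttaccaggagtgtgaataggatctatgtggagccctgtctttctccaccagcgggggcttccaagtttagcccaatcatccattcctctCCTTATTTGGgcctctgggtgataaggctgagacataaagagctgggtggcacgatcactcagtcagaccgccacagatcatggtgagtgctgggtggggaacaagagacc
In both the box lay within 100 bases before the annotated start. Among the higher heart muscle genes, the promoters of Myl3 and Myom1 also held the box. As with the E-box, these matches describe letters only.

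Smooth muscle genes followed, with 7 of 10 higher. Acta2, smooth muscle actin, had 4299.6, 4039.6 and 4068 in KD EBs, against 399, 657 and 553 in WT EBs (2.98 log2, limma adjusted p = 2.27e-15), and Myl9, a myosin regulatory light chain, had 1951, 2304 and 2165 in KD EBs, against 164, 218 and 217 in WT EBs (3.43). The arrays did not overlap. Acta2 and Tagln were higher in SCR than in WT EBs too, by 1.66 and 1.55 log2. Skeletal muscle genes showed 1 change in 12, a fall of Mylpf, the fast skeletal light chain, at -3.63 log2, with 89.9, 97.0 and 99.0 in KD EBs, against 1226, 1144 and 1176 in WT EBs. Myog and Myf5, factors of skeletal myogenesis, were near the floor in both lines. Mymx, a short protein that fuses myoblasts, was among the largest falls of all genes, with 44.3, 97.7 and 73.5 in KD EBs, against 1722, 1771 and 1675 in WT EBs (-4.66).

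The mesenchyme and its matrix held the most higher genes of any list, 26 of 32 with none lower (median 1.80 log2). Dcn (decorin), a proteoglycan that binds collagen fibrils, had 5793, 5442 and 5595 in KD EBs, against 719, 1389 and 1053 in WT EBs (2.46 log2, limma adjusted p = 6.08e-14). Col1a1, the main chain of fibrillar collagen I, had 1193, 1235 and 1296 in KD EBs, against 144, 252 and 207 in WT EBs (2.66). Lox, the enzyme that cross-links collagen, had 739, 776 and 744 in KD EBs, against 22.6, 136 and 56.1 in WT EBs (3.76), the largest difference of the list. KD arrays were higher throughout, and WT replicate 1 was the lowest WT array for Dcn, Col1a1 and Lox. Col3a1 reached 14099 ± 56.5 in KD EBs, near the highest signals of the arrays, against 4232 ± 506 in WT EBs. Postn (periostin) was at 2.09, Tnc (tenascin C), a matrix glycoprotein, at 2.38 (1.97 in SCR against WT EBs), and Vim (vimentin), the filament of mesenchyme, at 1.36, which was also higher in SCR EBs (1.11). Sparc, at 1.01, was under the minimum without KD replicate 2 (0.96) or WT replicate 1 (0.925), with each array centred on its median (0.90) and as a mean of its probe sets (0.56). Of the basement membrane chains, Lama2 (2.11), Lama4 (1.57) and Col4a5 (2.23) were higher and Lama1 was lower (-1.68).

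Genes of vessels came next. Of 18 endothelial genes 8 were higher and none was lower (median 0.72 log2). Cdh5 (VE-cadherin), the adhesion molecule between endothelial cells, had 399, 385 and 461 in KD EBs, against 46.9, 52.7 and 55.7 in WT EBs (3.00 log2, limma adjusted p = 9.28e-18), and Kdr, the main receptor of Vegf, was at 1.94. Pecam1, which stem cells express as well, was at 0.22 and Tek at -0.16, and neither was called. Of 6 genes of mural cells 5 were higher, among them Pdgfrb (2.02) and Rgs5 (2.13).

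Of 17 macrophage genes 13 were higher and none was lower (median 1.70). Lyz2, lysozyme, had 1734, 1399 and 1574 in KD EBs, against 190.0, 365 and 335 in WT EBs (2.45), and Csf1r, the receptor that macrophages depend on, had 936, 1031 and 962 in KD EBs, against 267, 292 and 288 in WT EBs (1.79). WT replicate 1 was the lowest in both, and the lines still did not overlap. All 3 globins measured in the list were higher. Hbb-y, the embryonic beta-like globin of yolk sac red cells, had 3468, 1746 and 2798 in KD EBs and 577 ± 62.4 in SCR EBs, against 20.8, 199 and 114 in WT EBs (5.04 log2, SE 0.499, adjusted p = 1.47e-11). The WT arrays spread widely, with replicate 1 the lowest and replicate 2 the highest. Hbb-bh1 had 609 ± 194 in KD, 633 ± 91.7 in SCR and 122 ± 83.6 in WT EBs. The erythroid factors Gata1 (-0.28) and Klf1 (-0.26) were near the floor and were not called. Another factor of the list, Tal1, was called at the 2-fold minimum (1.02). In all, 4 of 8 erythroid genes were higher, or 3 without replicate 3 in every group.

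Plasma proteins of the liver were higher in KD EBs in 24 of 31 genes, with none lower (median 1.93 log2). Fga, the alpha chain of fibrinogen, was at 2.76, and Serpina1b, an antitrypsin, had 2937, 2837 and 2817 in KD EBs, against 207, 771 and 534 in WT EBs (2.70 log2, limma adjusted p = 1.09e-05). Alb (albumin) had 13494, 12855 and 12678 in KD EBs, against 2077, 5793 and 4211 in WT EBs (1.81, SE 0.584, adjusted p = 0.00681). Afp, the fetal counterpart of albumin, was bright in both lines, at 13224 ± 564 in KD EBs against 9576 ± 1285 in WT EBs (0.47), and was not called. The KD arrays of Alb and Afp lay near the top of the scale (the highest value of all arrays was 14.03 log2), and WT replicate 1 was the lowest WT array for both. The difference of Alb missed the threshold without WT replicate 1 (1.40 log2, adjusted p = 0.0614) and without replicate 3 in every group (1.93, adjusted p = 0.0874).

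Of 7 liver transcription factors 4 were higher, among them Foxa1 (1.93) and Onecut1 (1.25). Hnf4a, the master factor of hepatocytes, was at 0.95 and over the minimum without WT replicate 2 (1.11). Of 12 apolipoproteins and related genes 5 were higher, with Apoh at 3.00 and Apoa2 at 2.29, while Apoe (-0.65) and Apob (0.57) were not called. The scrambled line stood on the other side of WT EBs here. Of the 31 plasma protein genes, 24 were lower in SCR than in WT EBs. Alb had 138 ± 117 in SCR EBs (-5.28 log2 against WT, 7.09 for KD against SCR) and Serpina1b had 11.9 ± 4.82 (-5.30 and 8.0).

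The visceral endoderm, the outer layer of the early embryo that makes many of the same plasma proteins, was described by a mixed list. It holds genes of uptake and regulators such as Gata4 and Cited1. Of 13 measured, 6 were lower and 2, both of them transcription factors, were higher. Cubn (cubilin), a receptor for vitamin and lipid carriers, had 20.3, 164 and 91.1 in KD EBs and 52.6 ± 10.5 in SCR EBs, against 879, 704 and 792 in WT EBs (-3.55 log2, limma adjusted p = 2.11e-11). Its partners Lrp2 (megalin) and Amn were at -3.10 and -2.67, and Dab2, their adaptor, at -1.58. No array overlapped in Cubn. The SCR mean lay within the range of the KD arrays, and 10 of the 13 genes were lower in SCR than in WT EBs. Gata6 (1.24) and Sox7 (1.09, or 0.98 with each array centred on its median), factors of primitive endoderm and of other tissues, were higher in KD EBs. Sox7 was at -2.52 in SCR against WT EBs. Of 9 genes of parietal endoderm 2 were higher, Plat (1.51) and Sparc (1.01), and 3 were lower, Srgn, Lama1 (-1.68) and Ctsc (-1.64). As means of their probe sets Plat (0.84) and Ctsc (-0.77) were not called. Srgn (serglycin) had 68.6, 223 and 153 in KD EBs and 185 ± 10.9 in SCR EBs, against 1992, 2369 and 2226 in WT EBs (-4.04). The 3 lower genes were also lower in SCR than in WT EBs.

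Several of the largest rises were in genes of the gut and its glands. Cym (chymosin), the milk-clotting protease of the young stomach, had 7538, 7231 and 8079 in KD EBs, against 32.4, 298 and 159.8 in WT EBs (6.04 log2, SE 0.445, limma adjusted p = 4.37e-15), the largest rise of any gene. Olfm4, a glycoprotein of intestinal crypts, had 191, 237 and 226 in KD EBs, against 5.86, 7.31 and 6.96 in WT EBs (5.02, adjusted p = 2.79e-28). The WT arrays of Olfm4 all lay under their lower quartile. Reg1, a secreted lectin of pancreas and gut, had 90.5, 622 and 349.7 in KD EBs, against 10.4, 11.6 and 12.6 in WT EBs (4.55), with a wide spread among the KD arrays and a narrow one among WT arrays. Of 23 genes of gut epithelium 9 were higher and 2 were lower. Lgals4 (2.36) and Fabp1 (2.31), both of enterocytes, were higher, Dpp4 was lower (-3.12), and Cdx2, the intestinal homeobox factor, was at -0.20 and was not called.

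Of 7 genes of the pancreas 4 were higher, the digestive enzymes Cpa1 (3.21), Cela1 (2.98) and Prss2 (2.16) and the hormone gene Gcg (2.52). Pnliprp1, a lipase-like protein of the pancreas outside that list, had 345, 2019.8 and 1121 in KD EBs, against 13.1, 31.6 and 35.5 in WT EBs (5.23). None of the 4 lung genes measured was called, while Cyp2f2, a cytochrome P450 of the airway, had 345, 195 and 217 in KD EBs, against 9.92, 12.4 and 10.9 in WT EBs (4.47). Of 17 cytochrome P450 genes 7 were higher and 2 were lower, among them Cyp26a1, which breaks down retinoic acid (-1.98). Of 14 other retinoid genes 5 were higher, 1 was lower and 8 were not called. Aldh1a1 (3.63) and Aldh1a2 (1.37), which make retinoic acid, were higher and Aldh1a3 (0.24) was not called. Of the receptors, Rarb was higher (2.26) and Rarg was lower (-1.22). Rarb was also higher in SCR than in WT EBs (1.41). Conjugating enzymes were higher in 9 of 18 genes, led by Ugt2b35 (3.63) and Ugt2b34 (3.00).

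Krt15, a keratin of basal cells in layered epithelia, had 1872, 1201 and 1520.2 in KD EBs and 19.9 ± 3.69 in SCR EBs, against 33.8, 44.3 and 38.3 in WT EBs (5.29 log2, limma adjusted p = 8.38e-28). It was the second largest rise of all genes, and the KD arrays lay far above all others. Trp63, the factor of those basal cells, was at 2.27 and Krt4, of oesophagus and mouth, at 2.48, while the skin keratins Krt5 (0.66), Krt1 (0.22) and Krt10 (0.79) were not called. In all, 7 of 23 genes of stratified epithelium were higher and none was lower. Of 17 genes of simple epithelium 4 were higher and 1 was lower. Krt19 was higher (2.05), whereas Cdh1 (0.12) and Epcam (0.36), which mark epithelial cells and stem cells alike, were not called. Tpbpa, a protein of the spongiotrophoblast, had 468, 125 and 313 in KD EBs, against 15.0, 44.0 and 23.4 in WT EBs (3.40), and Elf5, a factor of trophoblast stem cells and of gland epithelium, was at 3.00. Ascl2 (-1.53) and Tfap2c (-1.29) were lower, and of the 10 trophoblast genes 4 were higher and 2 lower.

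Neural genes gave different counts against the 2 other lines. Of 19 genes of neural progenitors 6 were higher than in WT EBs and 1, Sox2, was lower. Of 24 genes of neurons and glia 10 were higher and 1 was lower. Zic1, a zinc finger factor of the dorsal neural tube, had 689.8, 879 and 820.3 in KD EBs and 2275 ± 126 in SCR EBs, against 97.0, 252 and 176 in WT EBs (2.28 log2, limma adjusted p = 7.92e-10). Dcx (doublecortin), of migrating young neurons, had 149, 208 and 163 in KD EBs and 452 ± 30.0 in SCR EBs, against 28.8, 57.7 and 43.7 in WT EBs (2.04). Pax6 had 52.5 ± 6.12 in KD, 275 ± 14.4 in SCR and 44.5 ± 5.21 in WT EBs. For Zic1 and Dcx every KD array lay above every WT array and below every SCR array. KD EBs were below SCR EBs in 15 of the 19 and 13 of the 24 genes, and SCR EBs were above WT EBs in 15 and 16. Stmn2, a neuronal stathmin that stem cells also express, was lower in KD EBs (-1.30), though not when its probe sets were averaged (-0.71).

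Of 13 anterior Hox genes, which pattern the hindbrain and upper trunk, 8 were higher and none was lower, with Hoxb5 at 2.12 and Hoxb3 at 2.10. Against SCR EBs 2 of the 13 were higher in KD EBs, Hoxb5 (1.77) among them and Hoxb3 (0.65) not, and 3 were higher in SCR than in WT EBs, Hoxb3 (1.45) among them. Of 9 posterior Hox genes 4 were higher, with Hoxd8 at 2.24.

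Signals that cells exchange were read by pathway. Of 13 insulin-like growth factor (IGF) genes 7 were higher and 2 were lower. Igf1 had 1710.3, 1351 and 1520.2 in KD EBs, against 242, 311 and 296 in WT EBs (2.43 log2, limma adjusted p = 5.88e-12), and Igf2, an imprinted fetal growth factor and one of the brightest genes, had 11994, 11911 and 11994 in KD EBs, against 3350.1, 5043 and 4451 in WT EBs (1.5). Igfbp3, a binding protein that holds IGFs in the serum, was at 2.42, and Igfbp2 was lower (-1.55). The lines did not overlap in Igf1 or Igf2. Igfbp5 was at 0.00 on the probe set that represents it, while its other probe set was at 3.05 log2 (adjusted p = 1.52e-15), and the mean of the 2 gave 1.52. Cdkn1c, an imprinted inhibitor of cell division, was at 2.03, and Dlk1, an imprinted surface protein of progenitors, at 2.06.

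Plagl1, an imprinted zinc finger factor, had 68.6, 56.9 and 76.6 in KD EBs and 38.8 ± 8.16 in SCR EBs, against 1428, 1409 and 1418 in WT EBs (-4.41 log2, limma adjusted p = 7.19e-18). Both transfected lines lay far below WT EBs, with an SCR to WT difference of -5.21 log2. On day 0 the signal was 7.37 ± 0.490 in KD, 8.13 ± 1.46 in SCR and 25.2 ± 10.4 in WT cells (SD, n = 3 arrays). Phlda2 (-2.80) and Meg3 (-1.57), both imprinted, were likewise lower in KD EBs, and SCR EBs differed from WT EBs by -1.96 and -2.0 in them.

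Of the Wnt pathway, 4 of 11 ligands were higher, among them Wnt5a (1.69) and Wnt4 (1.58), and of 13 receptors and antagonists 4 were higher and 1, Dkk1, was lower (-1.17). Of 4 targets 1 was higher, Nkd1 (1.68), while Axin2, a feedback target of canonical Wnt signalling, was at 0.12 and was not called. All 4 targets were higher in SCR than in WT EBs. Of 11 ligands of the BMP and TGF-beta family 6 were higher, with Tgfb3 at 2.83, Tgfb2 at 1.96 and Bmp5 at 1.55, while Bmp4, the ligand of early mesoderm, was at 0.28 and was not called. The BMP targets Id1 (1.23), Id2 (1.65) and Id3 (1.35), which hold back differentiation factors, were higher, among 4 of 10 inhibitors and targets. Id2 and Id3 were higher in SCR than in WT EBs too (1.28 and 1.83). Of 17 genes of the FGF pathway 2 were higher and 3 were lower, where 12.2% of all genes were higher and 8.75% lower. The targets Etv5 (-2.68) and Etv4 (-1.5) were lower beside Fgf4, and the receptors Fgfr2 (1.35) and Fgfr3 (1.37) were higher. Shh, the hedgehog ligand, was at 1.19, and Ptch1, its receptor and target, at 0.37 and not called. Of the immediate early genes Jun (1.91) and Egr1 (1.90) were higher, and Fos (0.86) and Atf3 (0.11) were not called. Of 9 genes of the machinery for short hairpins and microRNAs 3 were lower, Tarbp2 (-1.31), Drosha (-1.12) and Dicer1, and 1 was higher, Ago4 (1.04). Ago4 was under the minimum with each array centred on its median (0.93), with quantile normalization (0.93), without KD replicate 1 (0.98) and without WT replicate 1 (0.96). None of the 9 passed the rule between KD and SCR EBs. Dicer1 was at -1.03 on its brightest probe set, but at -0.91 without WT replicate 1, at -0.998 without KD replicate 3 and at -0.40 when its probe sets were averaged.

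**Figure D3:**
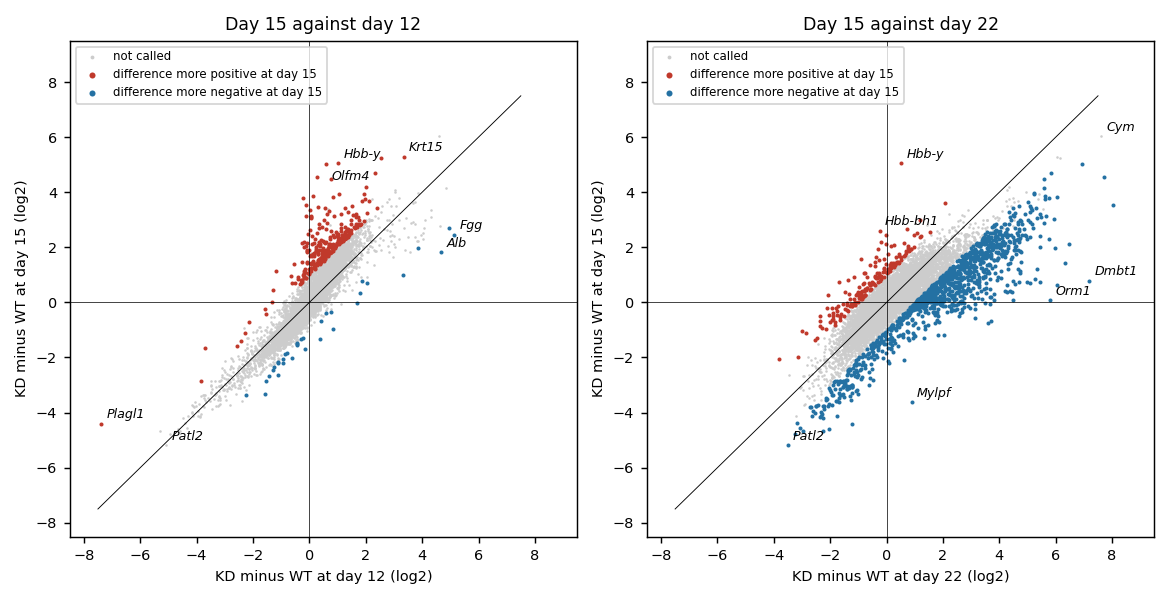
KD minus WT at day 15 (log2, vertical axis) against the same difference at day 12 (left) and at day 22 (right, horizontal axes), 1 point for each of 14104 genes. Red and blue points are genes whose difference was more positive or more negative at day 15 by the rule for the interaction, and the diagonal marks equal differences. Against day 12 most of the coloured points lie above the diagonal (274 of 308 genes), and against day 22 most lie below it (1102 of 1279).

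Whether the difference between the lines was the same on neighbouring days was tested as an interaction of line and day. The test uses the arrays of day 15 again and those of the other day. Against day 12, the KD to WT difference had moved in 529 probe sets (1.71%), or 308 genes (2.18%), of which 274 moved up (1.94%) and 34 down (0.241%). With replicate 3 left out of every group, and so with fewer arrays, 168 probe sets passed. Olfm4 had 9.99 ± 0.436 in KD against 6.66 ± 0.951 in WT EBs on day 12, so that its difference of day 15 was larger by 4.43 log2 (limma adjusted p = 3.74e-20). Reg1 (larger by 4.27), Cyp2f2 (by 3.71) and Anxa10, an annexin of the stomach (by 4.01), were likewise near the floor in both lines on day 12. Of the 29 heart muscle genes 13 had moved up, Tnnt2 by 1.55, with 1842 ± 51.8 in KD against 585 ± 36.8 in WT EBs on day 12. WT EBs of day 15 had a lower mean than those of day 12, whereas the KD means of the 2 days were close.

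Some liver genes moved the other way. Alb had 8452 ± 5322 in KD against 279 ± 88.8 in WT EBs on day 12, with a wide spread among the KD arrays. Its difference on day 15 minus that on day 12 was -2.86 log2 (adjusted p = 0.0253), and that of Fgg, the gamma chain of fibrinogen, was -2.69. Plagl1 moved by 2.99 toward a smaller fall. None of the 29 pluripotency genes had a difference that moved by this rule between days 12 and 15. Mageb16 itself moved by 0.31 log2 (adjusted p = 0.503).

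Against day 22, the difference had moved in 2680 probe sets (8.66%), or 1279 genes (9.07%), of which 177 were more positive (1.25%) and 1102 more negative on day 15 (7.81%). Of the 29 pluripotency genes 15 had a more negative difference on day 15. Pou5f1 had 598 ± 22.9 in KD against 2254 ± 131 in WT EBs on day 22. Its difference on day 15 minus that on day 22 was -1.44 log2 (limma adjusted p = 0.000257). Mageb16 had 141 ± 28.3 in KD against 657 ± 19.7 in WT EBs on day 22. Its difference on day 15 minus that on day 22 was -1.94 log2 (limma adjusted p = 3.19e-08).

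Several genes were near the floor in both lines on day 15 and differed on day 22. Dmbt1, a mucin-like protein of gut and glands, was at 0.78 log2 on day 15 (1.04 and over the minimum without KD replicate 1). On day 22 it had 2150.3 ± 323 in KD against 17.6 ± 10.7 in WT EBs. Its difference on day 15 minus that on day 22 was -6.39 log2 (limma adjusted p = 1.74e-17). Orm1 and Reg3g, secreted proteins of the acute phase and of gut defence, followed the same course, with day 15 minus day 22 values of -5.73 and -5.41. Of 24 genes of neurons and glia, 18 had a more negative difference on day 15 than on day 22, and of 12 skeletal muscle genes 9. Mylpf, among the latter, had 992 ± 24.2 in KD against 539 ± 81.3 in WT EBs on day 22. Its difference on day 15 minus that on day 22 was -4.52 log2. The globins went the opposite way. Hbb-y had 195 ± 123 in KD against 138 ± 82.7 in WT EBs on day 22, and 4234 ± 723 against 2120.3 ± 632 on day 12, so that the difference of day 15 exceeded both (4.54 and 4.01 log2). Among days 12, 15 and 22, KD EBs were low on day 22 only, while WT EBs of days 15 and 22 were low alike.

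**Figure D4:**
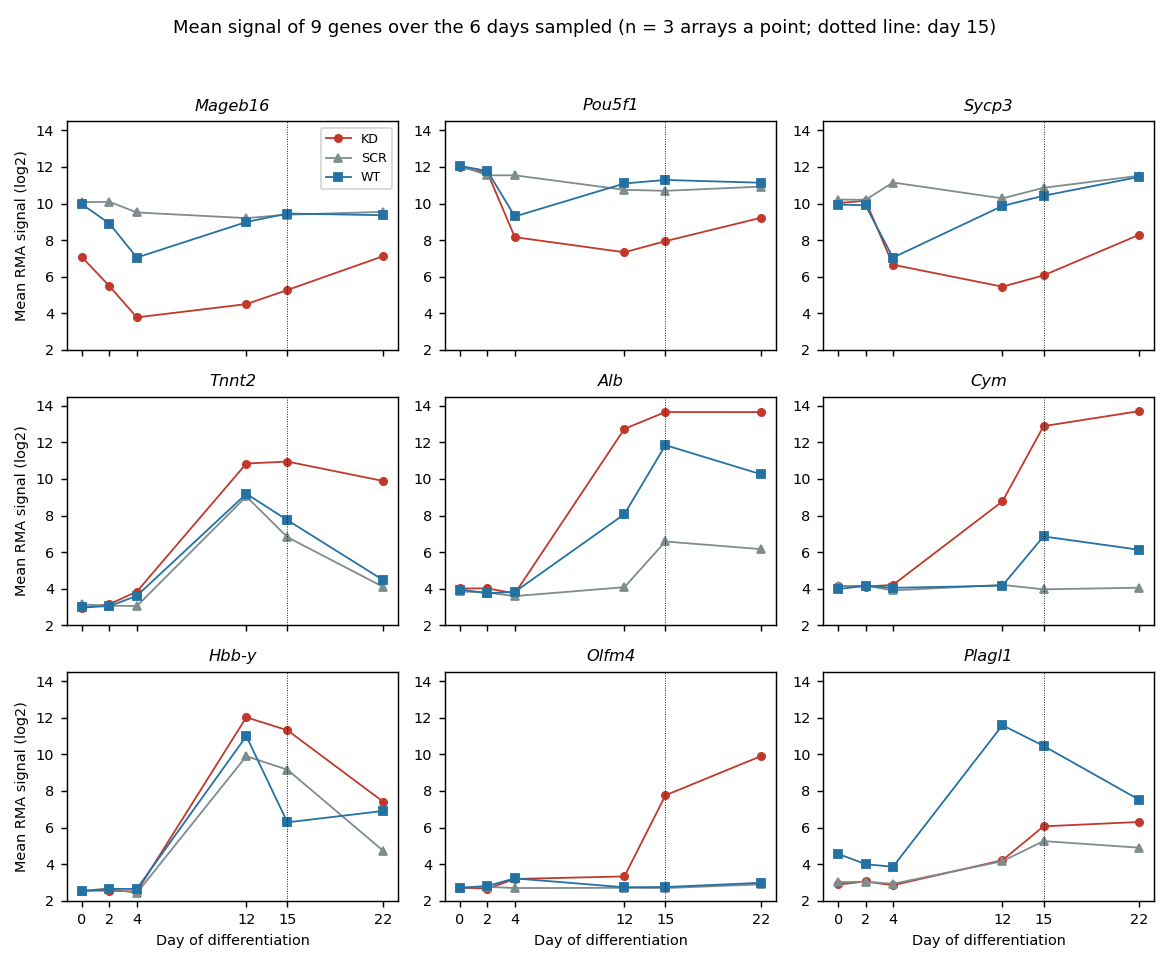
Mean RMA signal (log2, vertical axis) of 9 genes over the days of differentiation (horizontal axis) in KD, SCR and WT cells, 3 arrays a point, with day 15 dotted. Pou5f1 and Sycp3 are lowest in KD EBs on days 12 to 22, Olfm4 is high in KD EBs alone on days 15 and 22, Hbb-y is low in WT EBs already on day 15, and Plagl1 is lower in both transfected lines than in WT cells on every day.

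The scrambled line carries the plasmid without the hairpin against Mageb16. KD and SCR EBs differed in 3897 probe sets (12.6%), and SCR and WT EBs in 1967 (6.36%). These comparisons share arrays with that of KD and WT EBs, so their values are set side by side only. Lists with most members called in both comparisons included the germ line, lower in KD EBs in 17 of 27 genes against SCR EBs and in 22 against WT EBs, and DNA repair and methylation, lower in 13 of 18 in each. Heart muscle genes were higher in 21 of 29 against SCR EBs and 20 against WT EBs, the mesenchyme in 23 and 26 of 32, macrophages in 16 and 13 of 17, and plasma proteins in 26 and 24 of 31. Other lists had fewer calls against SCR EBs. Over all genes, 10.3% were higher and 6.18% lower in KD than in SCR EBs, where 12.2% and 8.75% were against WT EBs. Several of the following counts lie near those shares. Nucleoporins were lower in 2 of 23 against 8 for WT EBs, replication genes in 5 of 26 against 12, and anterior Hox genes were higher in 2 of 13 against 8, cartilage and bone in 1 of 15 against 5, smooth muscle in 4 of 10 against 7, the erythroid list in 2 of 8 against 4, the Mage family in 1 of 9 against 5, the Wnt pathway in 4 of 28 against 9, and the BMP and TGF-beta pathway in 4 of 21 against 10. Neural genes, described above, went the other way. SCR EBs were lower than WT EBs in 24 of the 31 plasma protein genes, 13 of the 17 macrophage genes and 8 of the heart muscle genes. They were also lower in 5 of the germ-line genes and 1 of DNA repair and methylation, beside 3.37% of all genes.

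Nkd1 and Tal1, higher in KD than in WT EBs, were not called between KD and SCR EBs. Other genes of this kind named above are given with their KD minus SCR log2 difference. They were Ago4 (-0.17), Bmp5 (0.74), Fgfr2 (0.99), Fgfr3 (0.99), Hbb-bh1 (-0.10), Hoxb3 (0.65), Id1 (0.48), Id2 (0.36), Id3 (-0.47), Maged1 (0.59), Magee1 (-0.15), Mageh1 (-0.13), Ndn (0.30), Plat (0.59), Rarb (0.85), Shh (0.01), Tagln (0.33), Tgfb2 (0.53), Tnc (0.41), Vim (0.25) and Wnt5a (0.69). Those lower against WT EBs and not called against SCR EBs were Amn (-0.06), Ascl2 (-0.33), Aurka (-0.69), Ccne1 (-0.97), Cdc6 (-0.83), Cox7a1 (-0.09), Ctsc (0.24), Cubn (0.37), Dicer1 (-0.58), Dpp4 (-0.32), Drosha (-0.63), Etv4 (-0.73), Lama1 (0.26), Mcm3 (-0.99), Meg3 (0.43), Nup107 (-0.83), Nup133 (-0.76), Nup160 (-0.85), Phlda2 (-0.84), Plagl1 (0.81), Rangap1 (-0.59), Rarg (-0.50), Srgn (-0.48) and Tarbp2 (-0.27). Mcm2 and Mcm7 were likewise lower against WT EBs and not called against SCR EBs. Dab2 (1.32), lower than in WT EBs, was higher than in SCR EBs.

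Among the genes called against WT EBs, those furthest from SCR EBs included Cym (8.94 log2), Serpina1b (8.0) and Ugt2b34 (7.79), and Sycp3 (-4.80), Patl2 (-4.38) and Mageb16 (-4.12).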

How the data were processed

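The deposited table holds log2 signals that the authors normalized by robust multi-array averaging (RMA) over 54 arrays (3 for each of 3 lines on 6 days). The submitters' processing notes also name Affymetrix Expression Console and Partek 6.6. RMA forces the arrays to a common distribution before summarising, and dim signals are compressed toward a floor, so small signals give too small a difference. No counts lie behind the values, so precision is limited by the number of arrays.

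Here limma 3.58.1 (R 4.3.3) was fitted with a mean for each of the 18 groups on all arrays, which share 1 estimate of the spread, followed by eBayes and Benjamini-Hochberg adjustment over 30939 probe sets. A call needed an adjusted p under 0.05 and a 2-fold difference, with no filter on dim probe sets. Probe sets were named from GEO's platform annotation (25596 with 1 symbol, 685 with several, 4658 with none), and each gene was represented by whichever of its probe sets had the highest mean over all arrays. Counts in lists used 49 lists of 973 entries, 832 of them measured. The genes, lists and comparisons were chosen with earlier results of these data known.

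Genes were named if they stand in the study's text, are among the 15 largest rises or falls without overlap, the 5 largest changes of a list, the 6 largest changes in each direction between days, or the 6 largest against SCR EBs. Further list members, called or not, were named after their values were seen, to show the rest of their list. On simulated data, 50 of 50 probe sets changed by 1.5 log2 were recovered, 2 of 50 changed by 0.7, and 1 of 30739 unchanged ones was called. A change of 0.7 log2 lies under the 2-fold minimum, which by itself keeps most such probe sets from a call. The simulated noise was independent between arrays, so the simulation cannot bear on whether replicate 3 is independent. Alternatives were other scalings, filters, tests and probe set rules, and leaving out arrays. The fit without replicate 3 was chosen after seeing the data. Promoters came from RefSeq, build GRCm38.p6, by symbol.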

Additional observations from a re-analysis of the deposited data

Results flagged for a closer look

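These results stand out because the KD to WT difference was not the same on 2 days, by the test of line and day in limma (adjusted p under 0.05 and a 2-fold change of the difference). The values are the difference on day 15 minus that on the other day, in log2. No cause was tested.

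Against day 12 the difference moved in 529 probe sets. It was more positive on day 15 for Olfm4 (4.43, adjusted p = 3.74e-20), Reg1 (4.27), Hbb-y (4.01), Anxa10 (4.01), Cldn2, a claudin of leaky epithelia (3.76), and Cyp2f2 (3.71). It was more negative for Alb (-2.86, adjusted p = 0.0253), Fgg (-2.69), Igfbp1 (-2.32), the steroid carrier gene Serpina6 (-2.29), Itih2 (-1.87) and Cited1 (-1.83). On day 15, Igfbp1 had signals of 867, 1053 and 904 in KD EBs, against 286, 729 and 498 in WT EBs, with replicate 1 the lowest WT array. Neither Igfbp1 (1.0 log2) nor Cited1 (-0.98) was called on that day. Igfbp1 was called without WT replicate 2 (1.31), and Cited1 without KD replicate 2 (-1.002), KD replicate 3 (-1.01) or WT replicate 1 (-1.10).

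Against day 22 the difference moved in 2680 probe sets. It was more positive on day 15 for Hbb-y (4.54, adjusted p = 3.85e-06), the embryonic globins Hbb-bh1 (2.85) and Hba-x (2.44), the myosin chaperone gene Unc45b (2.49), Nepn (2.44) and the carboxypeptidase gene Cpm (2.40). It was more negative for Dmbt1 (-6.39, adjusted p = 1.74e-17), Orm1 (-5.73), Reg3g (-5.41), the acute phase gene Saa1 (-4.89), Mptx1 (-4.68) and Mylpf (-4.52). Saa1 had 915 ± 82.5 in KD against 11.8 ± 3.30 in WT EBs on day 22, and 26.6 ± 5.73 against 9.78 ± 0.839 on day 15. Dmbt1, Orm1, Reg3g and Mptx1 were likewise near the floor in WT EBs on both days.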

How the results depend on the processing

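Tested against a 2-fold minimum inside the test (limma treat), 2680 probe sets differed between KD and WT EBs (1520 higher, 1160 lower), or 1536 genes (855 higher, 681 lower), the difference moved in 52 probe sets against day 12 and 525 against day 22, KD and SCR EBs differed in 1994 and SCR and WT EBs in 679. With the brightest 60% of probe sets, 3416 differed (1616 higher), with 963 genes higher, and the other counts were 149, 1154, 2175 and 1014. Fewer probe sets were tested there. Without replicate 3 in every group the count against day 12 was 168, and 13 of 98 list counts changed, by at most 2 genes.

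Leaving out 1 array gave 5222 to 5713 probe sets (3097 to 3368 higher, 2095 to 2410 lower), 2831 to 3125 genes (1641 to 1800 higher, 1173 to 1325 lower), and -4.27 to -4.04 log2 for Mageb16. The other counts ranged from 422 to 634 against day 12, 2406 to 2977 against day 22, 3772 to 4089 for KD and SCR, and 1959 to 2041 for SCR and WT EBs. Centring each array on its median made the calls 49.9% higher, and quantile normalization 54.1%, against 59.4% as deposited. Of 244 named genes put through the alternatives, 192 kept their call and direction under every one run, and 40 lost the call under limma treat. Without WT replicate 1 the call of 7 was lost. Igfbp5, at 0.00 log2 and not called, was called at 1.525 log2 when its probe sets were averaged.

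Same-numbered KD and WT arrays of day 15 deviated together with correlations of 0.124, 0.0439 and 0.0559. Those of unlike number ranged from -0.122 to 0.0948. So few values cannot settle whether the numbers pair the arrays. With the replicate number as a block, 5404 probe sets differed. A fit of only the KD and WT arrays compared gave 5401. There the limma adjusted p of Mageb16 was 1.80e-06, against 5.53e-23 in the fit of all arrays.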

Other observations

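Several further lists were counted between KD and WT EBs on day 15 (limma, adjusted p under 0.05 and at least 2-fold, with log2 differences given as KD minus WT). Over all genes, 12.2% were higher and 8.75% were lower, and several of these counts lie near those shares. Of 6 adipocyte genes 4 were higher and none was lower (median 1.11 log2). Fabp4, a fatty acid carrier of fat cells and macrophages, had 491, 580.0 and 549 in KD EBs, against 65.8, 132 and 109.9 in WT EBs (2.45). Of 15 genes of cartilage and bone 5 were higher and 1 was lower (median -0.07). Col9a1, a cartilage collagen chain, had 405, 249 and 359.5 in KD EBs, against 45.9, 59.3 and 53.8 in WT EBs (2.65), whereas Alpl, an alkaline phosphatase that is also a marker of pluripotent stem cells, was lower at -2.33. Col9a1 had 322 ± 102 in SCR EBs and differed by 0.09 between KD and SCR EBs, where 1 gene of the list was higher and 1 lower. Acan and Col2a1, main components of cartilage matrix, were at -0.35 and -0.40 and were not called. Of 6 neural crest genes 3 were higher, and of 7 kidney genes 1 was higher and 2 were lower. Of 16 genes of the p53 and stress responses 2 were higher, the immediate early genes Jun (1.91) and Egr1 (1.90), and 3 were lower, while Fos (0.86) and Atf3 (0.11) were not called. Of 11 interferon response genes 2 were higher and 2 were lower (median -0.02), with Cxcl10, a chemokine, at 1.82 and Oas1a, an antiviral enzyme, at -1.88. These lists were chosen with earlier results of these data known.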
